A study of Mus musculus with 48 samples.

Results

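The genes described here were 8 genes of cholesterol synthesis and its control, *Srebf2*, *Insig1*, *Hmgcs1*, *Idi1*, *Fdps*, *Sqle*, *Lss* and *Cyp51*, out of 18434 genes that could be named on the arrays. Every probe whose accession mapped to one of these symbols was taken, which gave 15 of 41174 probes. *Sqle* and *Fdps* had 1 probe each, 5 genes had 2 probes and *Cyp51* had 3. For values per mouse, the probe with the brightest Cy3 signal stands for its gene. All 15 probes were well above background on all 24 arrays of each tissue, except the second *Srebf2* probe (0 of 24 liver arrays and 23 of 24 colon arrays) and the second *Idi1* probe (23 of 24 liver arrays), and none was saturated.

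RNA of liver and of whole colon came from C57/BL6 offspring aged 12 weeks, on 48 Agilent 2-colour arrays. All dams and offspring ate a high-fat base diet, either supplemented with selenium and folate (H) or marginally low in both (L). The first letter of HH, HL, LH and LL is the diet of the dam in pregnancy and lactation and the second that of the offspring from weaning, so HH and LL mice had 1 diet throughout and HL and LH mice were switched. The liver groups held 5 HH, 6 HL, 6 LH and 6 LL mice, because 2 HH arrays carried the same animal and were averaged, and the colon groups held 6 mice each. No animal code was shared between the tissues, but the paper describes 6 offspring per diet, from which liver and colon were taken. A liver and a colon may thus come from the same mouse, which the labels do not settle. Fits of both tissues counted them as different mice, so any pairing was left out. The mice were fasted and then re-fed before sampling. Selenium and folate were always changed together, so that their parts cannot be told apart, and no group on a diet without added fat was measured.

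Each value below is a log2 ratio of the RNA of a mouse (Cy3) over a common reference (Cy5) on the same spot, so 1 unit is a doubling and 0 is the level of the reference. Ratios of different probes are not compared with each other as levels. The paper describes the reference as pooled RNA of the studied mice, whereas the design deposited with the arrays names a whole pregnant mouse and foetus. The reference was the same on every array and drops out of each comparison between groups. Differences were tested with limma, p-values were adjusted by Benjamini-Hochberg over all probes, and a probe was called at a fold change over 1.5 and an adjusted p under 0.05. These p-values measure the spread between the mice of these groups. The labels name neither dam nor litter, so littermates may have been counted as separate mice. The spread between dams, to which the first diet was given, cannot be taken from these data.

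The share of spots well above background in Cy3 was 55.1 to 66% on the liver arrays and 66.8 to 73.7% on the colon arrays. The study describes male mice, and 40 arrays had log2 Cy3 values of 6.19 to 8.29 for *Xist*, the RNA of the inactive X chromosome. On 4 arrays *Xist* was at 12.42 to 13.46 while the Y-linked *Eif2s3y* was at 6.22 to 7.47, below its 10.81 to 12.17 on the 40 arrays. These were liver HL replicate 2 and colon HL replicate 5, LL replicate 1 and LL replicate 3. On 4 others (liver LL replicate 6 and colon HH replicates 1 and 5 and LL replicate 5) *Xist* was at 9.44 to 12.16 and *Eif2s3y* at 10.24 to 11.48. None of the 8 arrays was an HH or LH liver array. The markers of the labelled tissues matched the labels: 8 of 8 measured hepatocyte markers were called higher in liver, with a median of 5.7 on the log2 scale, while 7 of 7 smooth muscle markers and 11 of 12 markers of colonic epithelium were called lower in liver and the 1 left, *Aqp8*, was higher there.

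Cholesterol is built from acetyl-CoA by a chain of enzymes in the cytosol and endoplasmic reticulum. The transcription factor SREBP2, encoded by *Srebf2*, is made as a precursor in the membrane of the endoplasmic reticulum, where INSIG proteins hold it back when sterols are plentiful. When sterols fall, the escort protein SCAP carries it to the Golgi, where proteases release the part that enters the nucleus and switches on the enzymes of the pathway and its own gene. *Insig1* is itself a target, which closes a feedback loop. The liver is a main site of cholesterol synthesis, and cells of the gut wall make cholesterol too.

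SREBPs bind short sterol regulatory elements close to gene starts, often beside binding boxes of NF-Y and Sp1. Promoter windows of RefSeq (build GRCm38.p6, 250 bases before the gene start to 50 after it) were given for 6 of the 8 genes, and 4 are printed to show how the elements lie in the gene of the factor, in the first enzyme of the set, in the feedback gene and in the demethylase. Capitals mark TCACNCC (core of the sterol regulatory element), CCAAT (NF-Y) and GGGCGG (Sp1), searched on both strands, so that ATTGG and CCGCCC are the last 2 motifs read on the other strand. No marked stretch was shared by 2 motifs. The windows lie at chr15:82147019-82147318 (*Srebf2*, plus strand), chr13:119690101-119690400 (*Hmgcs1*, plus strand), chr5:28071162-28071461 (*Insig1*, plus strand) and chr5:4104648-4104947 (*Cyp51*, minus strand).
Srebf2: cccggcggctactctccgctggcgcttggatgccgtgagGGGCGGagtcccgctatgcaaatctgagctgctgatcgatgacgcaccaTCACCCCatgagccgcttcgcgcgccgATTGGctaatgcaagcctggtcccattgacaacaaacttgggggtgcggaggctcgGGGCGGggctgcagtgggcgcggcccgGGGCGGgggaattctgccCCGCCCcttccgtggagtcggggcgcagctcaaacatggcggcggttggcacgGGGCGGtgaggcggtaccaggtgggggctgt
Hmgcs1: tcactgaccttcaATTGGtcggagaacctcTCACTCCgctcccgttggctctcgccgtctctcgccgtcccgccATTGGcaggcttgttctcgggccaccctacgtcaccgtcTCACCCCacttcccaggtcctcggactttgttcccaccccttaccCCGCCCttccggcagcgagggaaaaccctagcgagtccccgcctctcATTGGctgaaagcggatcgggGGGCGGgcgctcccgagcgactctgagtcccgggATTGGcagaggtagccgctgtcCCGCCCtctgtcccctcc
Insig1: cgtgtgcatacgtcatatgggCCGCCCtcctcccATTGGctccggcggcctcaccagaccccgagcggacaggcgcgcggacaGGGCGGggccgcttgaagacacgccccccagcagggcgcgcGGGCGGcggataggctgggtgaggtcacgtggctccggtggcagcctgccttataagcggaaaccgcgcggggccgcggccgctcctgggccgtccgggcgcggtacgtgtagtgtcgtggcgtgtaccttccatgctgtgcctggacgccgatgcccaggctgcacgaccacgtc
Cyp51: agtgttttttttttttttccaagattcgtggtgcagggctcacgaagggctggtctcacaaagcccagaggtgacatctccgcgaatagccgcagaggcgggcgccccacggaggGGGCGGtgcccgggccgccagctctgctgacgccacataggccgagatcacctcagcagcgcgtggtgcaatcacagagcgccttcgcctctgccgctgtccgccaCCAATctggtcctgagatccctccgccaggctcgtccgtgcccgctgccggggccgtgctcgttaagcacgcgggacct

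The core TCACNCC was found in 2 of the 6 windows, at 1 place in *Srebf2* (bases -162 to -156 from the gene start) and at 2 places in *Hmgcs1*. It was not in the windows of *Idi1*, *Cyp51*, *Lss* and *Insig1*, and 15.6% of all 32841 windows hold it. CCAAT was in all 6 windows, against 37.4% of all windows, and GGGCGG was in all 6, against 35.7%. All of these motifs together were in the windows of *Srebf2* and *Hmgcs1* and in 2.13% of all windows. A match says that the letters are there and nothing of binding.

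The first comparison, HH *vs.* LH, asks whether the diet of the dam leaves a difference in offspring that all ate the supplemented diet after weaning. In the liver, *Insig1*, *Fdps*, *Lss*, *Cyp51* and *Srebf2* were higher in LH than in HH mice by 0.34 to 0.87 on the log2 scale, but none passed the adjusted test. None of the 15 probes was called (0% of 41172 probes tested), and the lowest adjusted p of any probe on the array was 0.125. With the same cutoffs the paper does report changed probes for this and other liver comparisons. The reason for that disagreement was not tested. At an unadjusted p under 0.05, 8 of 15 probes, from these 5 genes, were higher in LH and 0 were lower. Among all probes 12% passed that threshold, 5.85% higher and 6.14% lower in LH. In all, 14 of 15 probes were higher in LH, with a median difference of 0.28 against -0.01 over all probes.

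**Figure D1:**
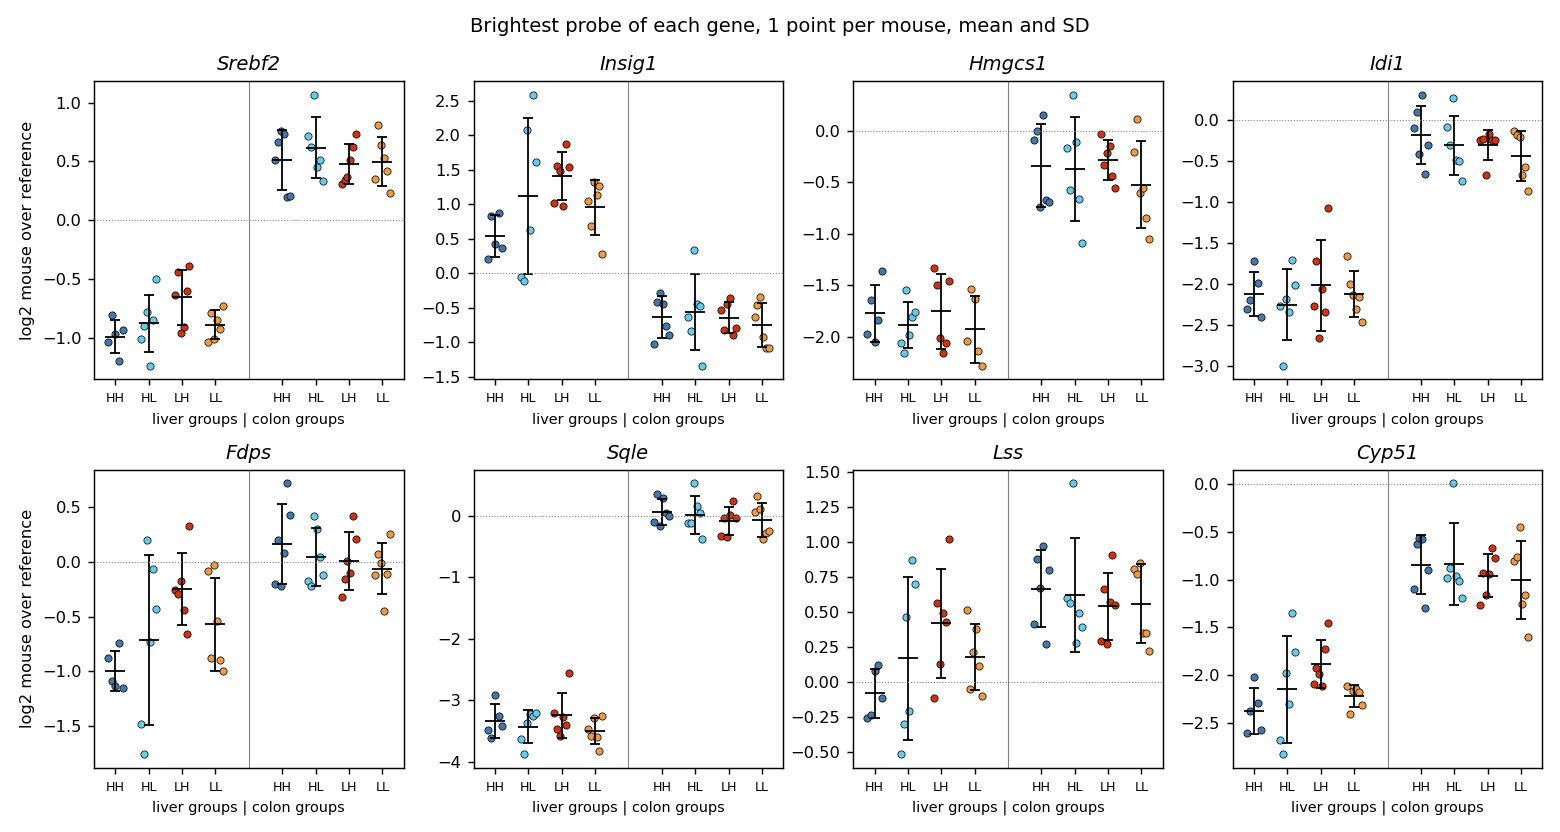
Log2 ratio of mouse over reference (vertical axis) of the 8 genes for each mouse in liver and colon (points) by diet group, with the mean and SD of each group as lines. In liver, the LH mice of *Insig1* (0.97 to 1.88) and *Fdps* (-0.66 to 0.33) lie above all HH mice (0.2 to 0.88 and -1.15 to -0.74), while the colon groups overlap.

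The regulators came first. *Srebf2* was at -1.04, -0.81, -0.97, -1.2 and -0.94 in the HH livers, and at -0.96 (lowest), -0.62 (median) and -0.39 (highest) in the 6 LH livers. The lowest LH mice lay among the HH mice, and the other LH mice lay above all of them. The difference was 0.34 ± 0.12 (SE; 1.26-fold; adjusted p = 0.274 by limma). The second probe of *Srebf2*, which was not well above background in liver, differed by -0.02 ± 0.08.

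*Insig1*, whose product retains SREBP2 in the endoplasmic reticulum, had the largest difference of the 8 genes. The HH livers were at 0.2, 0.83, 0.42, 0.88 and 0.37, and the LH livers at 0.97 (lowest), 1.51 (median) and 1.88 (highest). Every LH mouse was above every HH mouse, on both *Insig1* probes. The difference was 0.87 ± 0.37 (SE; 1.83-fold; 95% interval 0.11 to 1.63; adjusted p = 0.351 by limma) on the first probe and 0.6 ± 0.25 (adjusted p = 0.348 by limma) on the second. Groups without overlap and higher in LH were seen for 3 of the 15 probes, both *Insig1* probes and *Fdps*, against 0.7% of all probes.

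Among the enzymes, *Fdps*, the synthase of farnesyl diphosphate at the branch to sterols and prenylated proteins, was at -0.88, -1.09, -1.13, -0.74 and -1.15 in the HH livers and at -0.66 (lowest), -0.27 (median) and 0.33 (highest) in the LH livers. The groups did not overlap. The difference was 0.75 ± 0.28 (SE; 1.68-fold; 95% interval 0.18 to 1.32; adjusted p = 0.29 by limma).

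*Lss*, which folds squalene epoxide into lanosterol, the first sterol of the chain, was at -0.26, -0.24, 0.08, 0.12 and -0.12 in the HH livers and at -0.12 (lowest), 0.46 (median) and 1.02 (highest) in the LH livers. The LH mice reached higher and the groups overlapped at the low end. The difference was 0.5 ± 0.22 (SE; 1.41-fold; adjusted p = 0.371 by limma), and 0.28 ± 0.16 on its second probe. *Cyp51*, which removes a methyl group from lanosterol, was at -2.61, -2.38, -2.02, -2.29 and -2.57 in the HH livers and at -2.11 (lowest), -1.96 (median) and -1.45 (highest) in the LH livers. A single HH mouse lay inside the LH range. Its 3 probes differed by 0.49 ± 0.19, 0.55 ± 0.2 and 0.24 ± 0.12 (SE), with adjusted p of 0.32, 0.299 and 0.412 by limma.

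The remaining enzymes showed smaller differences. *Hmgcs1*, the cytosolic HMG-CoA synthase at the entry of the pathway, was at -1.97, -1.64, -2.05, -1.84 and -1.36 in the HH livers and -2.16 (lowest), -1.76 (median) and -1.33 (highest) in the LH livers, a difference of 0.02 ± 0.17 (95% interval -0.34 to 0.37). *Sqle*, the squalene epoxidase that takes the first oxygen-dependent step towards sterols, was at -3.49, -3.61, -2.91, -3.26 and -3.42 in HH and -3.58 (lowest), -3.34 (median) and -2.55 (highest) in LH, a difference of 0.09 ± 0.16 (95% interval -0.25 to 0.43). *Idi1*, the isomerase that makes the reactive isoprene unit, differed by 0.1 ± 0.23 (95% interval -0.37 to 0.58), with HH livers at -2.31, -2.2, -1.72, -1.99 and -2.4 and LH livers at -2.66 (lowest), -2.17 (median) and -1.07 (highest). In each of these 3 genes the HH mice lay inside the range of the LH mice or next to it. The upper ends of these intervals reach the differences seen for *Srebf2* or *Lss*, so a smaller change than in those genes was not shown.

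**Figure D2:**
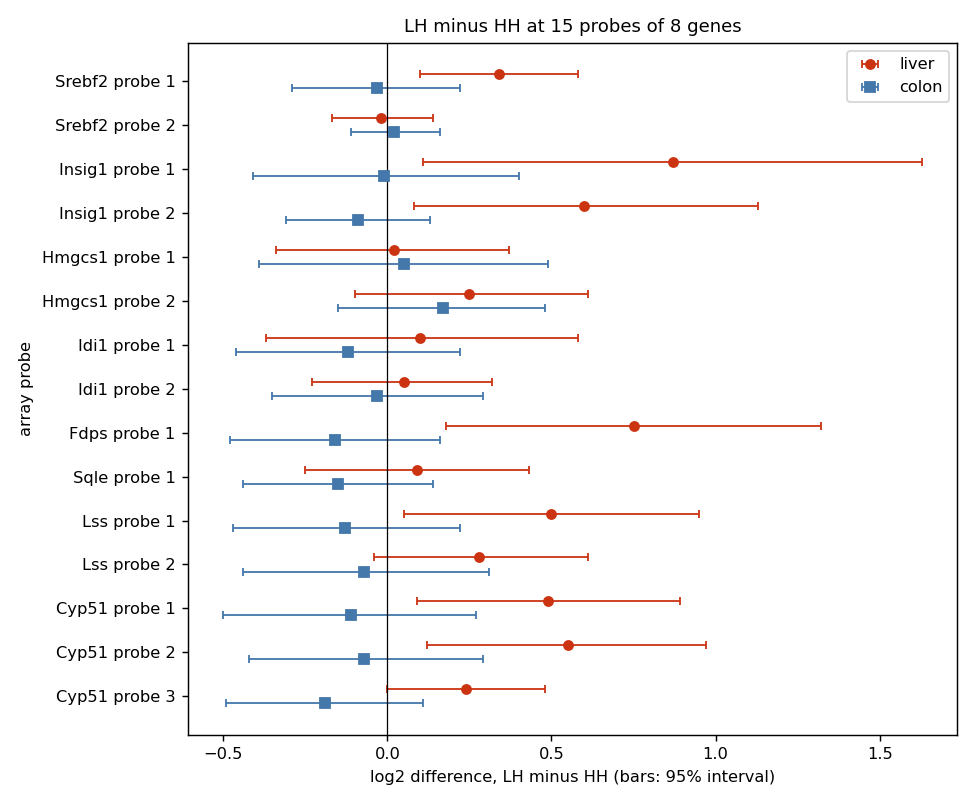
Difference LH minus HH (log2, points) with its 95% interval (lines) for the 15 probes in liver and in colon. In liver the points lie between -0.02 and 0.87, and in colon 3 of 15 lie above 0.

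Each liver slide carried 1 array of each diet, so the difference could also be taken within slides. *Srebf2*, *Fdps*, *Cyp51*, *Lss* and *Insig1* were higher in LH on 6 of 6 slides, with a range of 0.09 to 1.5 for *Insig1* and of 0.3 to 1.56 for *Fdps*, while *Hmgcs1*, *Sqle* and *Idi1* were higher on 4 of 6. The HH arrays of 2 of these slides came from the same animal. These are the same arrays as in the comparison above, and the share of all probes higher on every slide was not counted. The count of 8 probes at an unadjusted p under 0.05 was 4 without HH replicate 5, 5 without HH replicate 1, 5 without LH replicate 6, and 4 with the background correction applied without repair. LH replicate 6 had the highest value of the LH livers in 6 of the 8 genes.

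The diet of the offspring alone, HH *vs.* HL, gave 0 of 15 liver probes at an unadjusted p under 0.05, against 4.38% of all probes. The means of *Insig1* and *Fdps* were higher in HL by 0.58 ± 0.37 (95% interval -0.18 to 1.35, adjusted p = 0.952 by limma) and 0.29 ± 0.28 (SE). The HL mice were far apart. For *Insig1*, HL replicates 1 and 2 were at -0.05 and -0.11, below all HH mice, whereas replicates 3, 5 and 6 were at 2.07, 2.59 and 1.61, above all HH mice, and replicate 4 was at 0.62. *Fdps*, *Cyp51* and *Lss* had the same replicates 1 and 2 below and 3, 5 and 6 above all HH mice. HL had the highest SD of the 4 liver groups in 5 of the 8 genes (1.14 for *Insig1*, against 0.3 to 0.4 in the other groups), and LH had it in 3.

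HL replicate 2 is the liver with high *Xist* and low *Eif2s3y*. Without it, 3 of the 15 probes had an unadjusted p under 0.05 for HH *vs.* HL, and without replicate 1, which had low *Xist*, 2 had one. None was called in either case.

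In mice kept on the low diet throughout (LL), the means of *Srebf2*, *Insig1*, *Fdps*, *Cyp51* and *Lss* lay between those of HH and LH. *Insig1* was at 0.28 (lowest), 1.09 (median) and 1.33 (highest) in the LL livers and *Fdps* at -1, -0.71 and -0.03. Against HH, *Insig1* differed by 0.42 ± 0.37 and *Fdps* by 0.42 ± 0.28 (SE; adjusted p = 1 for both by limma). A single probe, the dim second *Srebf2* probe, had an unadjusted p under 0.05 and was lower in LL, against 2.2% of all probes lower. These comparisons share the HH mice with HH *vs.* LH.

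LH *vs.* LL asks about the diet after weaning in mice of L dams, and shares the LH mice. All 15 probes were lower in LL than in LH, by 0.07 to 0.45, with a median of -0.24 against 0 over all probes. Of these, 2 had an unadjusted p under 0.05 (3.19% of all probes lower), and the lowest adjusted p among all probes was 0.768. LH was also above HL for all 15 probes, by 0.03 to 0.46, with adjusted p of 1 throughout, and 0 of 15 had an unadjusted p under 0.05 (1.74% of all probes).

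In the factorial fit, the interaction asks whether the low diet of the offspring had another difference in mice of L dams than in mice of H dams. It was -1.04 ± 0.51 for *Insig1* (95% interval -2.09 to 0.02, adjusted p = 0.449 by limma) and -0.35 ± 0.16 for *Srebf2* (adjusted p = 0.417 by limma). At an unadjusted p under 0.05, 3 of 15 probes were lower (5.96% of all probes lower), namely *Srebf2* and 2 probes of *Cyp51*, and none was called. This count turned on single mice: it was 1 without any of HH replicate 1, LH replicates 2, 5 or 6, HL replicates 3, 5 or 6 or LL replicate 5, and 7 without HL replicate 1 or 2. The mean of LH and LL over that of HH and HL was 0.44 ± 0.19 for *Fdps* (adjusted p = 0.999 by limma).

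In the colon, values of the diet groups lay over each other for all 8 genes. For HH *vs.* LH, 0 of 15 probes had an unadjusted p under 0.05 (3.24% of all probes), the lowest p of the 15 was 0.204, and 3 of 15 were higher in LH, with a median of -0.07. *Insig1* was at -1.03 (lowest), -0.6 (median) and -0.28 (highest) in HH colons and at -0.89, -0.67 and -0.36 in LH colons, a difference of -0.01 ± 0.2 (95% interval -0.41 to 0.4). *Fdps* was at -0.22, 0.14 and 0.72 in HH and at -0.32, -0.05 and 0.42 in LH, a difference of -0.16 ± 0.16 (95% interval -0.48 to 0.16). The groups overlapped throughout. The other 6 genes differed by -0.15 to 0.05. None of the 15 probes had an unadjusted p under 0.05 in the other colon comparisons either, against 1.46% of all probes for HH *vs.* HL, 1.72% for HH *vs.* LL, 1.02% for HL *vs.* LL, 2.8% for LH *vs.* LL, 2.95% for HL *vs.* LH, 2.11% for the diet of the dam, 2.04% for that of the offspring and 1.79% for the interaction.

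The intervals in the colon leave out differences as large as the liver estimates of *Insig1* and *Fdps*, so the difference between the tissues was tested itself, in a fit of all 47 samples. That fit did not model any pairing of liver and colon by mouse. The LH minus HH difference was smaller in colon than in liver by 0.91 ± 0.32 for *Fdps* (adjusted p = 0.607 by limma) and by 0.88 ± 0.42 for *Insig1* (adjusted p = 0.653 by limma). At an unadjusted p under 0.05, 8 of 15 probes had a lower difference in colon and 0 a higher one, against 3.56% of all probes lower. None was called. Without liver LH replicate 6 the count was 2, and without any of liver HH replicates 1, 2 or 5, liver LH replicate 5, or colon HH replicates 2, 3 or 4 and LH replicates 1 or 3, it was 4 or 5.

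The rest of the pathway was taken from lists. Its counts at an unadjusted p under 0.05 in liver are read against the 5.85% of all probes that were higher in LH. Of 16 other enzymes of cholesterol synthesis, 14 were higher in LH than in HH livers, with a median of 0.25, and 4 had an unadjusted p under 0.05, all higher. *Msmo1*, a sterol methyl oxidase that acts after *Cyp51*, differed by 0.82 ± 0.27 (SE; adjusted p = 0.269 by limma), *Fdft1* (squalene synthase) by 0.61 ± 0.21 and *Sc5d* (sterol C5-desaturase) by 0.26 ± 0.1. *Msmo1* was at -1.39 (lowest), -1.23 (median) and -0.97 (highest) in HH and at -1.04, -0.49 and 0.35 in LH, so that these groups overlapped at the low end of LH. Of 7 genes of sterol uptake and transfer, 2 had an unadjusted p under 0.05, both higher in LH. *Npc1*, which moves cholesterol out of lysosomes, differed by 0.63 ± 0.18 (adjusted p = 0.233 by limma).

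SREBP processing, the response to oxysterols through LXR and fatty acid synthesis under SREBP1 border on this pathway, and their counts at an unadjusted p under 0.05 are read against the 12% of all probes that passed in liver. Of 8 processing genes, 1 had an unadjusted p under 0.05, higher in LH, and *Insig2*, the relative of *Insig1*, was lower in LH at -0.46 ± 0.23 (adjusted p = 0.426 by limma). In the list of LXR targets, efflux and esterification, 1 of 10 genes passed (*Soat2*, 0.39), with a median of -0.06, and in lipogenesis under SREBP1 1 of 12 passed (*Acss2*, 0.39), with a median of -0.06. In the colon, 0 genes of cholesterol synthesis, SREBP processing, uptake or lipogenesis and 1 of 10 genes of the LXR list (*Mylip*, 0.37 ± 0.15) had an unadjusted p under 0.05 for LH minus HH, against 3.24% of all probes, and none of the 12 lipogenesis genes was above 0, with a median of -0.21. The 6 adipocyte markers were below 0 in the colon too, with a median of -0.59 and summed signals of 95400 to 195000 in HH and 14900 to 163000 in LH, and their part in those values was not tested.

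**Figure D3:**
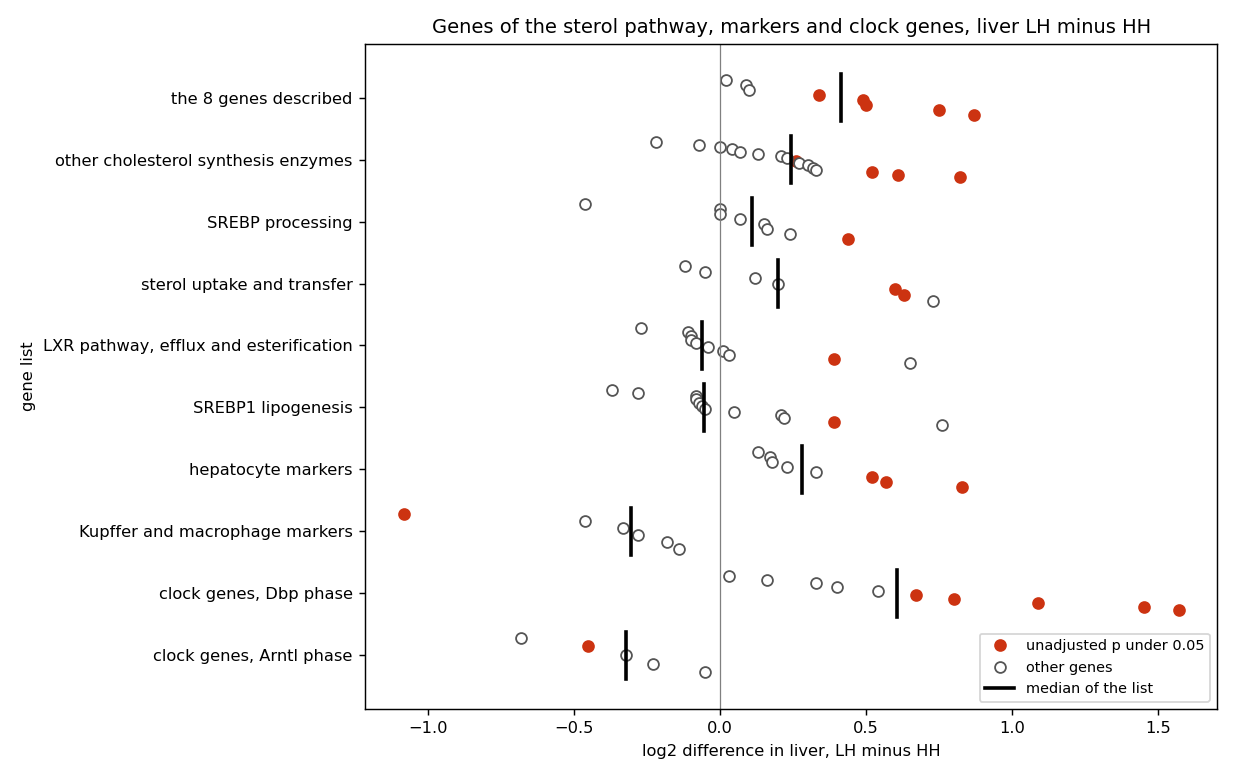
Difference LH minus HH in liver (log2, points, 1 per gene) for the 8 genes and for lists of related pathways, hepatocyte and Kupffer markers and clock genes, with filled points at an unadjusted p under 0.05 and a bar at the median of each list. The 16 other enzymes of cholesterol synthesis have a median of 0.25, while the LXR and lipogenesis lists have medians of -0.06.

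Markers of cells and of time of day were set beside the HH *vs.* LH values in liver. Their counts at an unadjusted p under 0.05 are read against 5.85% of all probes higher and 6.14% lower in LH. Hepatocyte markers had a median difference of 0.28, with 3 of 8 higher in LH at an unadjusted p under 0.05, and their summed Cy3 signal was 1040000 to 1410000 in HH and 1400000 to 1930000 in LH. In bulk tissue, more cells of a type and more RNA per cell cannot be told apart. Clock genes that peak with *Dbp* had a median of 0.61, with 5 of 10 higher in LH at an unadjusted p under 0.05 (*Dbp* by 1.45), and summed signals of 7270 to 53300 in HH and 17300 to 73900 in LH. This difference from HH was not confined to LH. *Dbp* was above HH by 1.54 in HL and by 1.18 in LL livers, with summed signals of 22700 to 78200 and 11000 to 67100. Of 5 clock genes in phase with *Arntl*, 1 passed, lower in LH, with a median of -0.32. Markers of Kupffer cells had a median of -0.31 (summed signal 15000 to 87900 in HH and 22900 to 46400 in LH, 1 of 6 lower), those of colonic epithelium -0.16 (2 of 12 lower), of adipocytes 0.23 and of exocrine pancreas -0.35 (0 passed in either). Single livers stood out in the last 2 lists. The summed adipocyte signal was 4870 to 31400 in HH and 4700 to 75900 in LH, where *Plin1* reached 2.73 against an LH median of -1.01. The summed pancreas signal was 2840 to 8290 in HH and 3640 to 6090 in LH, but reached 92000 in HL, outside this comparison. Of 4 erythroid markers 1 was lower and 0 of 7 smooth muscle markers passed. The part of these differences in the values of the 8 genes was not tested.

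Among mice of the same diet, several of these genes had a wide spread, set against all probes, dim ones included. *Insig1* had an SD within groups of 0.66 in liver, at percentile 99.3 of all probes, whose median SD was 0.17. *Fdps* followed with 0.49 (percentile 97.5), *Idi1* with 0.41 (percentile 94.9), *Lss* with 0.39 (percentile 93.8) and *Cyp51* with 0.34 (percentile 90.4). Lower in liver were *Hmgcs1* at 0.3 (percentile 86.1), *Sqle* at 0.29 (percentile 84.2) and *Srebf2* at 0.2 (percentile 61.3). In the colon, where the median SD of all probes was 0.16, *Hmgcs1* was at 0.4 (percentile 97.4), *Insig1* at 0.37 (percentile 96.6) and *Cyp51* at 0.35 (percentile 95.8). Lowest there were *Sqle* at 0.26 (percentile 84.1) and *Srebf2* at 0.23 (percentile 75.9). Other probes of a gene could be lower, such as the third of *Cyp51* in liver (percentile 61.4) and the second of *Insig1* in colon (percentile 64.2).

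Within groups, the genes varied together from mouse to mouse. Deviations from the mean of the diet group were correlated for the 28 pairs of genes in each tissue, with a permutation test (100000 resamples, two-sided) and Benjamini-Hochberg adjustment over the 28 pairs. In liver (23 mice) 28 of 28 Pearson correlations were positive, with a median of 0.48, and 14 had an adjusted p under 0.05. In the colon (24 mice) 25 of 28 were positive, with a median of 0.63, and 22 had an adjusted p under 0.05. With Spearman's rho, 11 liver and 20 colon pairs passed, and 10 pairs passed in both tissues by Pearson's r. The 8 values of a mouse come from the same array and share its labelling and normalization.

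The closest pair was *Cyp51* and *Lss*, next to each other in the sterol part of the chain. In liver r was 0.87 (adjusted permutation p = 0.00014) and rho 0.85. Without the 2 mice farthest from the median, r was 0.85 (adjusted permutation p = 0.00028). In the colon r was 0.92 (adjusted permutation p = 4.67e-05) and rho 0.88. Without the 2 farthest colon mice, r was 0.88 (adjusted permutation p = 0.00028). The unadjusted permutation p of r over all mice was 1e-05 in both tissues, about the smallest that 100000 resamples can give. *Cyp51* and *Insig1* had r of 0.85 and rho of 0.81 in liver, with r at 0.72 without the 2 farthest mice. *Srebf2* and *Hmgcs1* passed in liver with only each other (r of 0.5) but had 6 of 7 partners in the colon. *Fdps* did the reverse, with 5 of 7 partners in liver and 1 of 7 in the colon (*Sqle*, r of 0.54), where its other correlations were -0.06 to 0.21. Whether these patterns differ between tissues was not tested. All 21 colon pairs without *Fdps* passed.

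**Figure D4:**
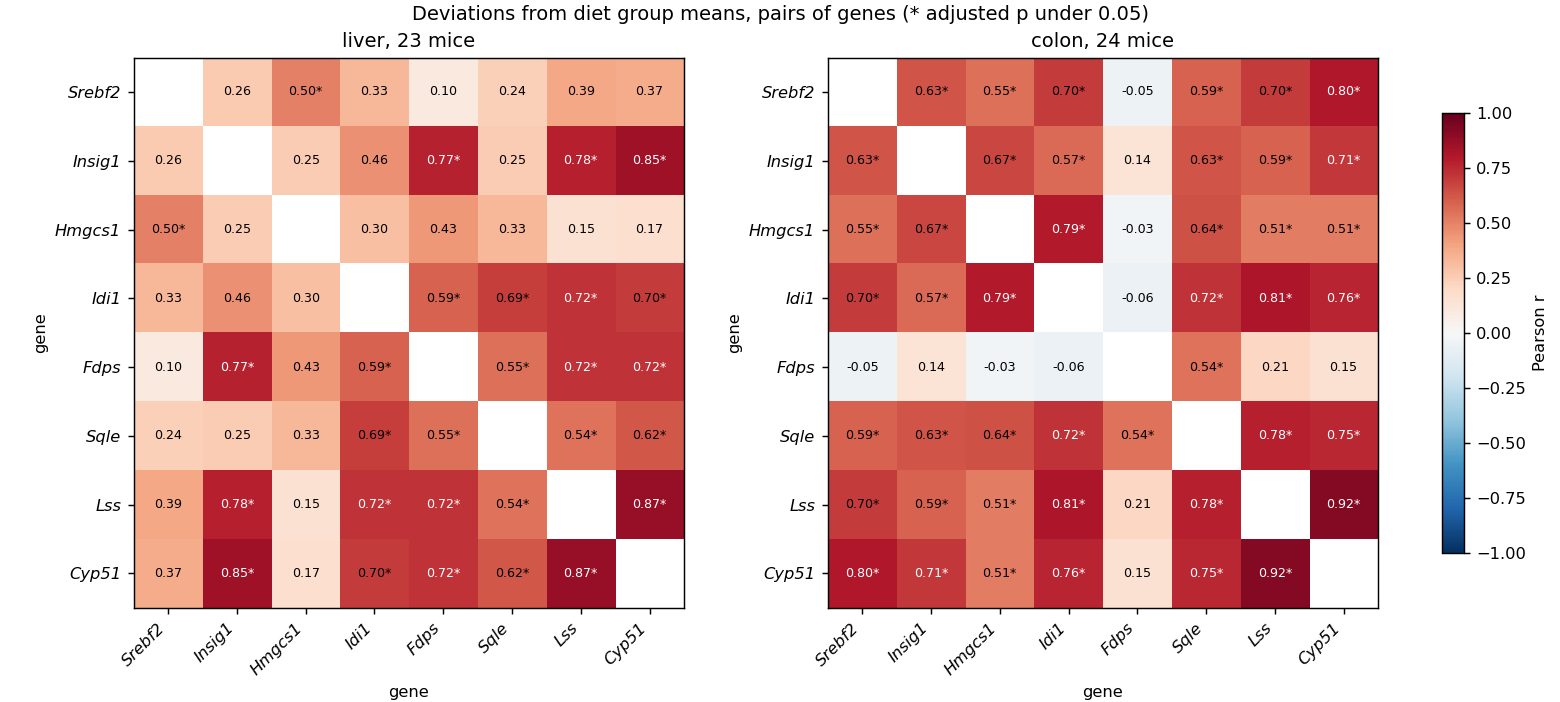
Pearson correlation (colour and printed value) of deviations from diet group means for each pair of the 8 genes, in 23 livers and 24 colons, with a star at an adjusted permutation p under 0.05. The highest values are those of *Cyp51* with *Lss* (0.87 in liver and 0.92 in colon), and the row of *Fdps* in colon is close to 0 except with *Sqle* (0.54).

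Single mice carried part of these relations. Leaving out each mouse in turn left 10 to 15 liver pairs, the lowest without HL replicate 2, and 17 to 23 colon pairs, the lowest without HL replicate 3, which was the highest of its group for 8 of 8 genes. Without the 2 mice farthest from the median of the first gene of each pair, 13 liver and 14 colon pairs passed. With deviations also taken from the mean of each slide, 18 liver and 24 colon pairs passed, and without any mouse with high *Xist* 13 and 22 did.

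Other genes were ranked by the Pearson correlation of their deviations with the mean deviation of the 8 genes, as a description over the same arrays. In liver (23 mice, 18424 genes) genes among the 10 highest were *Msmo1* (0.86), *Nsdhl* (0.81), *Mcm3ap* (0.8), *Ift172* (0.78), *Fdft1*, *Idh1* and *Gpam* (0.77 each) and *Ntn1* and *Pold2* (0.76 each). In the colon (24 mice, 18425 genes) they were *Aacs* (0.87), *Nsdhl* and *Msmo1* (0.84 each), *Optn* and *C2cd2l* (0.81 each), *Mfsd4a* and *Slc1a1* (0.79 each) and *Vil1*, *Dok4* and *Septin5* (0.78 each). *Msmo1* and *Nsdhl*, both of which remove methyl groups from sterols, were in the first 10 of both tissues. The median over all genes was -0.05 in liver and -0.02 in colon, and the 95th percentile was 0.48 and 0.5. The 16 other enzymes of the pathway had a median of 0.55 in liver and 0.4 in colon. Lipogenesis had 0.23 and 0.25, and hepatocyte markers 0.27 and 0.21. Clock genes that peak with *Dbp* had 0.06 and 0.25, and ranged from -0.28 to 0.68 in liver. Some lists came closer to the enzymes in a single tissue. The 5 sex genes, among them *Xist* and *Eif2s3y*, had 0.48 in liver (-0.69 to 0.53) and -0.08 in colon. Sterol uptake and transfer had 0.13 in liver and 0.37 in colon, smooth muscle markers -0.07 and 0.3, and adipocyte markers -0.21 and 0.28.

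Between the tissues, 11 of the 15 probes were called. Liver and colon were compared as the mean of the 4 liver groups minus that of the 4 colon groups. Of the 15 probes, 9 were called lower in liver and 2 higher, against 30.3% of 41171 probes called (14.6% higher and 15.7% lower). Each slide held arrays of a single tissue, so slide and tissue cannot be told apart in these values. Any pairing of liver and colon by mouse was not modelled here either.

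*Sqle* had the largest difference. It was at -3.88 to -2.55 in the 23 livers and at -0.38 to 0.53 in the 24 colons, so no liver came near any colon, and the difference was -3.36 ± 0.08 (SE; 10.3-fold lower in liver; adjusted p = 1.09e-35 by limma). *Idi1* was lower in liver by 1.82 ± 0.1 (3.54-fold), *Hmgcs1* by 1.45 ± 0.1 (2.73-fold) and *Srebf2* by 1.38 ± 0.06 (2.61-fold). For these genes too the ranges did not meet, with *Srebf2* at -1.24 to -0.39 in liver and 0.2 to 1.07 in colon. *Cyp51* was lower in liver by 1.25 ± 0.1 (2.37-fold) and *Fdps* by 0.67 ± 0.11 (1.59-fold), with overlapping ranges.

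*Insig1* ran the other way. It was at -0.11 to 2.59 in liver and at -1.34 to 0.34 in colon, so the lowest livers (HL replicates 1 and 2, HH replicate 1 and LL replicate 6) lay within the colon range and all others above it. The difference was 1.66 ± 0.15 (SE; 3.15-fold higher in liver; adjusted p = 9.86e-14 by limma), with 1.36 ± 0.1 on its second probe. The probes of *Lss* disagreed, at -0.43 ± 0.1 and 0.25 ± 0.09, and neither was called. The second *Hmgcs1* probe (-0.2) was not called either, and the second *Srebf2* probe was not well above background in liver, so it gives a bound only.

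**Figure D5:**
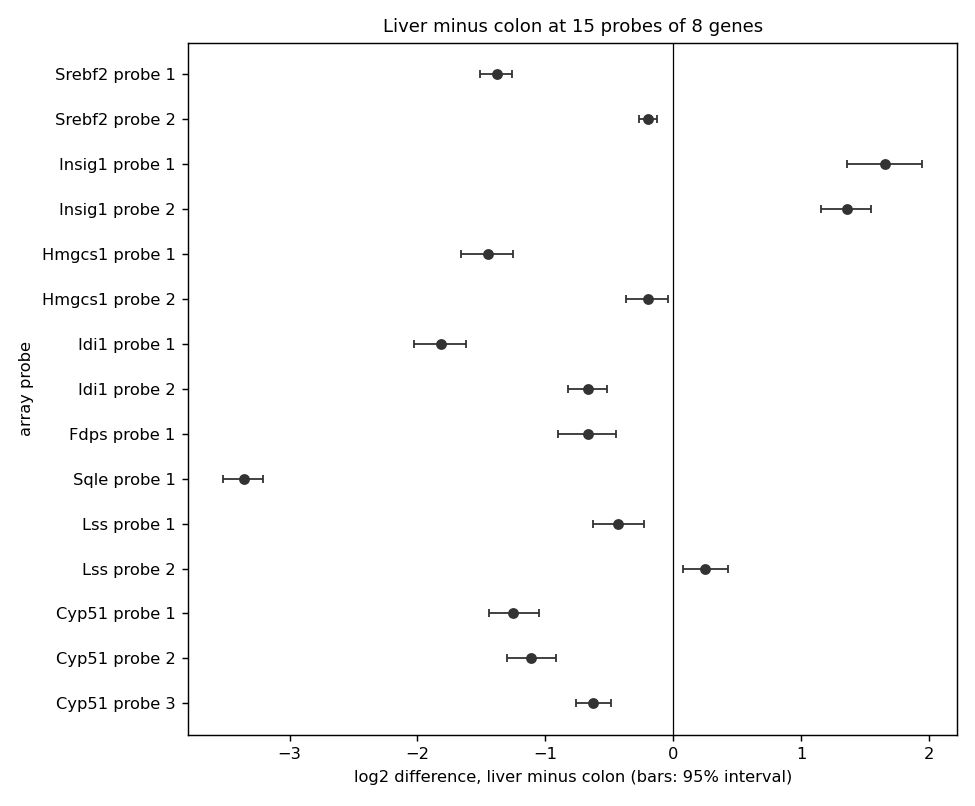
Difference liver minus colon (log2, points) with its 95% interval for the 15 probes. *Sqle* lies lowest at -3.36 and *Insig1* highest at 1.66.

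Calls in the related lists are read against the 30.3% of all probes called. Of the 16 other enzymes of cholesterol synthesis, 5 were called higher in liver (among them *Acat2* by 3.94, *Sc5d* by 2.18, *Tm7sf2* by 1.97 and *Ebp* by 1.53) and 7 lower (among them *Lbr* at -1.8, *Msmo1* at -1.49, *Dhcr7* at -1.22, *Mvd* at -1.12, *Nsdhl* at -0.86 and *Ggps1* at -0.72), and 4 were not called. Of 8 genes of SREBP processing, 5 were called higher in liver, led by *Insig2* (2.65) and *Srebf1* (1.95), and 1 lower. Of 7 genes of uptake and transfer, 3 were called higher, among them *Scarb1* (2.85) and *Npc1* (1.83), and 2 lower. Of 10 genes of LXR, efflux and esterification, 6 were higher, led by *Cyp7a1* (7.02), the first enzyme of bile acid synthesis, and *Soat1* was lower (-2.56). Of 12 genes of lipogenesis, 10 were called, all higher in liver. With median centring in place of loess, the median difference of all probes was 0.22 rather than 0.01 and 13 of the 15 probes were called, with *Insig1* at 1.03 and *Lss* at -1.04, and with the background correction applied without repair 9 were called.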

How the data were processed

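The data are 48 Agilent 2-colour arrays, 24 from liver and 24 from colon. For every array the authors deposited the scanner output, in which each spot has a median intensity and a local background per channel, before any normalization. They also deposited log2 ratios of reference over mouse. With the sign turned, these matched loess ratios made here without background correction (Pearson r of 0.9997 to 1 per array). The file headers name Feature Extraction 10.10.1.1 and build mm9, whereas the paper names another version of that software, and the submitters' notes name limma and R 3.0.2.

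Background was corrected with normexp (offset 50). A local background above the signal of its own spot was first replaced by the median background of the array. Ratios were normalized by global loess with control spots at weight 0, and outlier spots were left out (102 to 261 per array), which removed *Hmgcs1* in LL liver replicate 6. Spots of a probe were averaged, as were the 2 arrays of one HH liver animal, whose deviations from the group mean correlated at 0.806 (at most 0.26 for other HH pairs). Accessions named 27050 of 41174 probes. The fits used limma 3.58.1 (lmFit, eBayes) in R 4.3.3, with each tissue as 4 groups, or 8 groups for comparisons of tissues, and Benjamini-Hochberg adjustment over all probes. On simulated data with log2 changes of 0.8 to 1.2, the liver fit called 184 of 200 changed probes of HH *vs.* LH and the colon fit 191 of 200. The 15 probes of the 8 genes differed by -0.02 to 0.87 in liver. The SD within liver groups was 0.66 for *Insig1*, against a median of 0.17 over all probes. How often the fit calls probes with such differences and spreads was not tested. Array number limits the precision.

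Slide numbers in the labels pair 1 array of each diet. Deviations of arrays on the same slide correlated at 0.165 on average in liver (-0.324 to 0.67) and 0.379 in colon (0.0889 to 0.722), so slide served as a block only as an alternative. The other alternatives were the background setting, processed signals, median centring, Aquantile, the deposited ratios, the handling of the repeated animal, a filter on dim probes, fits of 2 or of all 8 groups, array weights, and leaving out mice.

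The 8 genes and the lists were chosen with earlier results of these data known. Named were all 8 genes, the called genes of each list or its 3 with the lowest p in liver HH *vs.* LH, and the 10 genes per tissue most like the mean of the 8. Genes of the lists named beyond this were chosen after their values were seen. *Cps1*, *Pck1*, *Cd68*, *Hbb-b1*, *Hbb-b2* and *Prss1* were not matched to a probe here. Hepatocyte, colonic epithelium, smooth muscle, Kupffer, erythroid, adipocyte, exocrine pancreas, clock and sex gene lists were read beside the results. Some genes of the lists are not reported here.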

Additional observations from a re-analysis of the deposited data

Results flagged for a closer look

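Values of each gene were looked at for a mouse far from the others of its group, by Dixon's criterion, in 64 groups, where chance alone marks about 1 group in 20. In this way 4 values stood apart. *Cyp51* in the colon of HL replicate 3 was at 0.01, with the nearest HL mouse at -0.88, and *Lss* in the same colon was at 1.42, with the nearest at 0.6. *Idi1* in the colon of LH replicate 3 was at -0.67, with the nearest LH mouse at -0.25. *Sqle* in the liver of LH replicate 6 was at -2.55, with the nearest at -3.2.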

How the results depend on the processing

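No probe of the 8 genes was called between diets, in liver or colon, under any of the alternatives run, and *Srebf2*, *Insig1*, *Fdps*, *Cyp51* and *Lss* stayed higher in LH than in HH livers under all 15 of them, by 0.25 to 0.57, 0.87 to 1.01, 0.7 to 0.93, 0.31 to 0.71 and 0.44 to 0.65. With slide as a replicate block *Insig1* was at 0.87 and *Fdps* at 0.7, 7 of 15 probes had an unadjusted p under 0.05, and no call changed. The count of 8 was 4 with normexp without repair and 4 to 9 with each mouse left out. Estimates near 0 changed sign, and the cause was not tested. *Sqle* in liver HH *vs.* LH (0.09) was -0.1 with normexp without repair and 0 with the slide block. The *Hmgcs1* difference between tissues (0.03) was -0.01 with normexp without repair, -0.04 with processed signals, -0.14 with median centring, -0.01 with the arrays of the same animal counted separately and -0.11 with array weights. The *Idi1* interaction (0.03) was -0.01 with normexp without repair, -0.08 with median centring, -0.18 with array weights, -0.12 without mice of high *Xist* and low *Eif2s3y* and -0.05 without any mouse of high *Xist*.

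With each mouse left out, the ranges that crossed 0 were -0.07 to 0.13 (*Hmgcs1*, difference between tissues), -0.07 to 0.12 (*Hmgcs1*, LH minus HH), -0.16 to 0.03 (*Hmgcs1*, interaction), -0.09 to 0.23 (*Idi1*, LH minus HH), -0.12 to 0.22 (*Idi1*, interaction) and -0.05 to 0.2 (*Sqle*, LH minus HH). Colon pairs of genes past an adjusted p of 0.05 numbered 14 in place of 22 without the 2 farthest mice and 17 to 23 with each mouse left out, and liver pairs 10 to 15. The relations with slide as a block, without mice of high *Xist* and with each mouse left out were chosen after seeing the data. Over all probes, liver HH *vs.* LH gave 0 calls, but 6 with the repeated animal as 2 mice, 18 with only these 2 groups, 106 with all 8 groups and 3 with array weights. The interaction gave 0, but 4 with the slide block, 52 with all 8 groups and 499 with array weights, the difference between tissues 0 but 11 with array weights, and liver *vs.* colon 12491, but 20179 with processed signals and 24221 with median centring. In Cy3 the signal over background had a median of 2.55 in liver and 4.235 in colon, which limits dim probes such as the second of *Srebf2*.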
